A study of Rattus norvegicus with 26 samples.

Results

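The genes described here are the collagen chain genes, those whose symbol in the array's probe annotation reads Col, a type number, the letter a and a chain number. The annotation held 41 such genes among 14217 genes with a single symbol, and each is represented by the 1 of its probe sets (groups of short probes that read 1 transcript) with the highest mean over all 26 arrays. The 41 genes carry 58 probe sets, 14 of them have more than 1, and they lie on 14 chromosomes. By the structure of the protein they divide into 11 fibrillar chains, 9 fibril-associated chains, 5 basement membrane chains, 5 beaded filament chains, 4 transmembrane chains, 3 short-chain network chains, 2 multiplexins and 2 others. Col4a3, Col6a4 and Col28a1 follow the same naming pattern in the GRCr8 annotation and are not analysed here.

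A collagen molecule is a triple helix of chains that are hydroxylated, glycosylated and folded in the endoplasmic reticulum and then secreted. Fibrillar collagens such as types I, III, V and XI assemble into fibrils, type IV forms the sheet of the basement membrane, type VI forms beaded filaments beside cells, and fibril-associated collagens decorate fibrils. In the brain, fibrillar collagens are known mainly from the meninges and the walls of blood vessels, and the neural tissue itself holds little fibrillar matrix.

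The arrays carried RNA from primary cultures of the cerebral cortex of newborn rats at postnatal day P1, grown as neuronal, astrocytic, oligodendrocytic or microglial cultures with 4 biological replicates of each. The labels give no strain, sex, treatment or culture time, so that every culture is described only by its cell type, and they do not say from how many animals a culture came. A further 10 arrays carried mixtures of the same RNAs, with 2 replicates of each of 5 proportions. NA1, NA2 and NA3 held 0.75, 0.5 and 0.25 astrocytic RNA with neuronal RNA as the rest. In NAO the neuronal share was 0.5, and astrocytic and oligodendrocytic RNA made up 0.25 each. In NAOM the neuronal share was again 0.5, the astrocytic and the oligodendrocytic share 0.2 each and the microglial share 0.1. Every replicate 1 mixture drew on neuron replicate 1, astrocyte replicate 1, oligodendrocyte replicate 2 and microglia replicate 2, as far as it contained them. Every replicate 2 mixture drew in the same way on neuron replicate 2, astrocyte replicate 4, oligodendrocyte replicate 4 and microglia replicate 3.

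Values are log2 intensities after Robust Multi-array Average (RMA), called levels below, with array medians of 5.25 to 5.31 for culture arrays and 5.33 to 5.41 for mixture arrays. The description of microglia replicate 4 calls it a mixture while its title and cell type make it a microglial culture, and it was kept as a culture. Over all probe sets, astrocyte replicate 4 stood apart from its group, with a median absolute log2 difference of 0.227 to 0.282 from the other 3 astrocyte arrays. The other astrocyte pairs differed by 0.125 to 0.176. Some pairs elsewhere came close to replicate 4, with 0.220 to 0.257 between microglia replicate 3 and its group and 0.232 between neuron replicates 1 and 3. The labels call all replicates biological and say no more, so p-values measure the spread between these arrays, which may in part be technical. Levels depend on the probes and are compared between samples, never between genes. For a comparison whose lower level was under the array median, background compresses the difference and the fold is a lower bound.

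The first question was in which culture each chain was high. Astrocyte cultures held most of the chains with a clear signal: 16 of the 41 chains were higher and 3 lower against the averaged other 3 cultures, at a limma adjusted p under 0.05 and a log2 difference of at least 1. Over all 31042 probe sets tested, 8.14% were called higher and 7.55% lower. The higher chains came from 6 of the structural classes: the fibrillar Col1a1, Col1a2, Col3a1, Col5a1, Col5a2 and Col5a3, the basement membrane Col4a1, Col4a5 and Col4a6, the beaded filament Col6a1 and Col6a2, the network-forming Col8a1 and Col8a2, the fibril-associated Col12a1 and Col14a1, and the multiplexin Col18a1, which is the precursor of endostatin. The lower chains were the fibrillar Col11a2 (-1.02), the fibril-associated Col19a1 (-1.29) and the transmembrane Col25a1 (-1.12). The median difference was 0.12 over the 41 chains and -0.04 over all probe sets. Of the 16 chains, 12 were also called against every other culture taken one by one, against 4.21% of all probe sets.

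Of the 16 chains, Col6a2 and Col4a5 had the smallest spread between astrocyte arrays (SD 0.18 and 0.26, n = 4). Col6a2 stood at 9.21, 9.17, 9.31 and 8.88 on astrocyte replicates 1 to 4, while the other 12 culture arrays had a median of 4.64 and ran from 4.31 to 5.27. Col6a1, its partner in the type VI molecule, stood at 8.94, 9.16, 9.16 and 8.29 against a median of 5.75 and a range of 5.50 to 6.11. No astrocyte array overlapped any other culture array for either chain. Col6a2 was 22.8-fold higher (4.51 ± 0.14, log2 difference ± SE, n = 4 arrays per culture, limma adjusted p = 9.49e-12) and Col6a1 8.72-fold (3.12 ± 0.14, limma adjusted p = 2.44e-10). Col6a3, the remaining chain of the classical type VI molecule, stayed at 4.41 ± 0.28 (SD, n = 4) in astrocyte cultures and below the array median everywhere, on each of its probe sets. The second probe set of Col6a2 gave a log2 difference of 0.55 and was not called, so that the probe sets of this gene disagree.

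Col4a5, a basement membrane chain, had the largest difference of the 41, with 10.37, 10.77, 10.76 and 10.99 on the astrocyte arrays. The other 12 arrays had a median of 4.97 and ran from 3.88 in microglia replicate 4 to 7.33 in neuron replicate 3. The neuronal arrays were uneven, at 4.93, 5.65, 7.33 and 7.18. The mean over 8 astrocyte marker genes on these neuronal arrays was 7.81, 8.72, 10.16 and 9.87, so that they carried astrocyte transcripts as well. The part of other cells in the neuronal levels of the chains was not tested. The difference was 5.47 ± 0.43 (44.3-fold, limma adjusted p = 8.39e-08) against the mean of the other cultures and 4.45 against neuronal cultures, the next highest. Col4a6, which assembles with Col4a5, stood at 6.29, 7.42, 7.41 and 6.65 against a range of 4.82 to 5.30 elsewhere. It was 3.61-fold higher, a lower bound (1.85 ± 0.16, limma adjusted p = 2.86e-07).

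Col12a1 and Col14a1, which bind the surface of type I fibrils, were likewise separated from all other arrays. Col12a1 stood at 9.17, 9.72, 9.66 and 10.64 against a median of 4.77 and a range of 4.08 to 5.65, a difference of 4.93 ± 0.27 (at least 30.5-fold, limma adjusted p = 2.10e-09). Col14a1 stood at 7.63, 6.78, 7.02 and 8.92 against a range of 4.03 to 5.30, a difference of 3.07 ± 0.29 (at least 8.38-fold, limma adjusted p = 5.83e-07). Astrocyte replicate 4 was the highest of the 4 arrays for both chains on these probe sets. Their other probe sets gave smaller differences, 2.51 and 1.25 for Col12a1 and 1.99 for Col14a1, all called higher. The folds above are thus those of the chosen probe sets.

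The 6 fibrillar chains called higher, of 11 measured, had wider spreads between astrocyte arrays than Col6a2 and Col4a5, with an SD of 0.75 for Col5a3 and up to 2.84 for Col1a1. Col5a2, a chain of type V collagen, stood at 10.24, 10.34, 10.36 and 12.72, with the other 12 arrays at a median of 5.94 and between 4.38 and 8.54 (4.78 ± 0.60, 27.4-fold, limma adjusted p = 1.19e-05). Col1a2, the second chain of type I collagen, stood at 8.24, 7.92, 8.02 and 13.11 against a median of 4.85 and a range of 3.73 to 7.44 (4.21 ± 0.81, at least 18.5-fold, limma adjusted p = 5.97e-04). Col3a1, the type III chain of elastic tissues, stood at 7.63, 7.57, 7.66 and 12.56 against a median of 4.90 and a range of 4.00 to 7.52 (3.41 ± 0.81, 10.6-fold, limma adjusted p = 0.00291). For Col1a2 and Col3a1 the lowest astrocyte array lay just above the highest array of the other cultures, an oligodendrocytic one.

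Col1a1, the main chain of type I collagen, overlapped with oligodendrocyte cultures. Its astrocyte arrays read 6.78, 7.70, 7.72 and 13.01, and the other 12 arrays had a median of 4.97 and reached 7.88 in oligodendrocyte replicate 4. It exceeded the mean of the other cultures (3.57 ± 0.91, limma adjusted p = 0.00506) and was not called against oligodendrocyte cultures (2.81 ± 1.12, limma adjusted p = 0.0664). Col5a1 stood at 7.12, 7.55, 7.36 and 9.47 against a range of 6.28 to 6.91 (1.29 ± 0.29, limma adjusted p = 0.00226). Without astrocyte replicate 4 all 3 astrocyte arrays of Col5a1 still lay above the other cultures, and its difference of 0.76 fell under the minimum of 1.

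The network-forming type VIII chains, known from vessel walls and the cornea, completed the group. Col8a2 stood at 6.15, 6.80, 7.31 and 10.81 with the other arrays between 3.17 and 4.44 (4.07 ± 0.56, at least 16.8-fold, limma adjusted p = 2.63e-05). Col8a1 stood at 5.51, 7.25, 6.93 and 10.82 against a range of 4.53 to 5.95 (2.56 ± 0.61, at least 5.88-fold, limma adjusted p = 0.00302). Astrocyte replicate 1 of Col8a1 lay inside the range of the neuronal arrays. Without astrocyte replicate 4 the differences against the mean of the other cultures were 3.05 for Col8a2, 1.49 for Col8a1, 2.95 for Col1a2, 2.17 for Col1a1, 2.17 for Col3a1 and 0.93 for Col4a1, and of these Col4a1 alone lost its call. On its other probe set Col4a1 differed by 0.88 (limma adjusted p = 0.208), and the other probe set of Col1a1 gave 1.84, neither called. The number of chains higher than in each other culture was then 10, with Col3a1, Col5a1 and Col8a1 lost and Col5a3 gained.

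**Figure D1:**
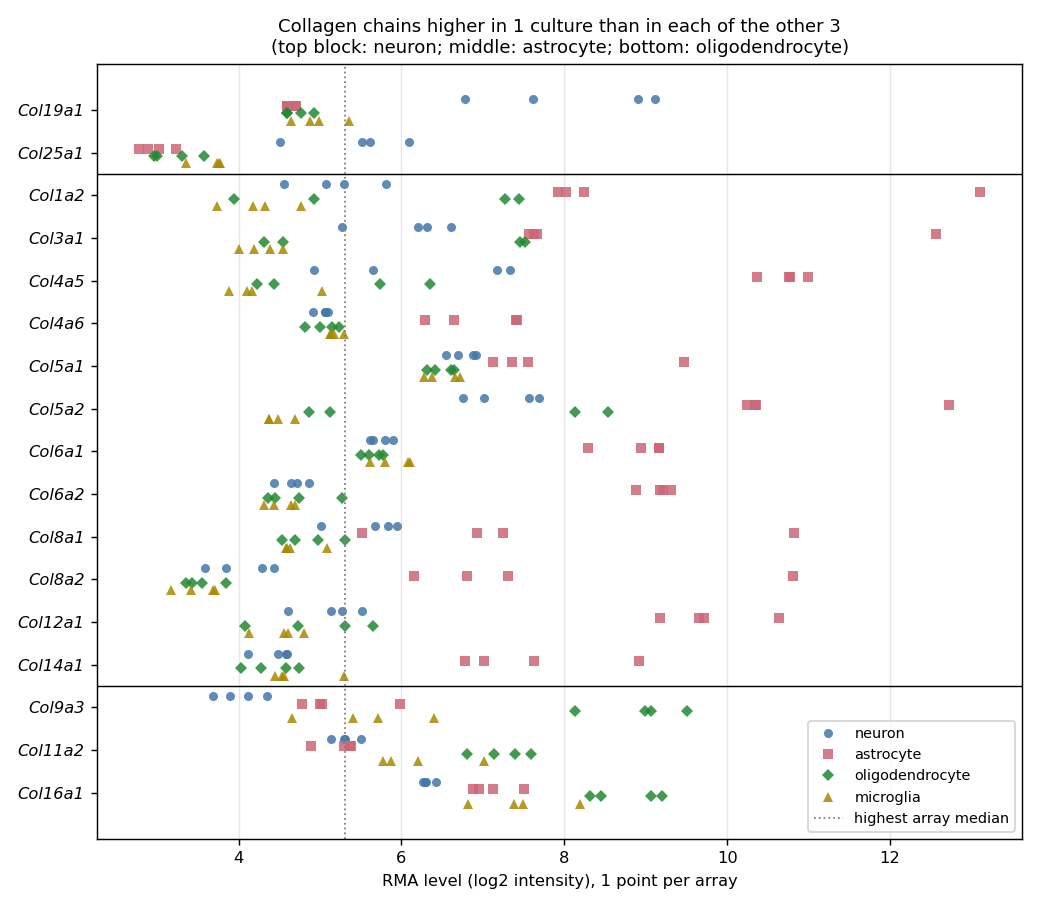
Level of each collagen chain called higher in 1 culture against every other one, with RMA log2 intensity on the horizontal axis and 1 point for each of the 16 culture arrays, coloured by culture. The dotted line is the highest culture array median (5.31). Col6a1, Col6a2 and Col4a5 form tight astrocyte clusters, while 1 astrocyte point, replicate 4, lies far to the right for Col1a2, Col3a1, Col8a1 and Col8a2.

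Oligodendrocyte cultures had a set of their own. Here 5 chains were higher and 7 lower against the averaged other cultures, compared with 5.4% and 4.61% of all probe sets. The higher chains were the fibril-associated Col9a3 and Col16a1 and the fibrillar Col11a1, Col11a2 and Col27a1, chains known from cartilage, where types IX and XI share a fibril with type II. Col2a1, the type II chain, stood at 4.03 ± 0.21 (SD, n = 4) in oligodendrocyte cultures and was below the array median on all 16 culture arrays. The lower chains were Col4a5, Col6a1, Col6a2, Col8a2, Col12a1, Col14a1 and Col19a1. The call of Col8a2 (-1.56, limma adjusted p = 0.046) was lost when any oligodendrocyte, neuron or microglia replicate or astrocyte replicate 3 was left out (limma adjusted p = 0.0507 to 0.108). Of the 5 higher chains, Col9a3, Col11a2 and Col16a1 were higher than in each other culture, against 1.47% of all probe sets.

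Col9a3 had the widest margin, with 9.51, 9.07, 8.13 and 8.99 on oligodendrocyte replicates 1 to 4. The other 12 arrays had a median of 4.89 and ran from 3.69 to 6.40, the highest being microglia replicate 1. It exceeded the average of the other cultures 16.1-fold, a lower bound (4.01 ± 0.29, limma adjusted p = 1.69e-07), and 10.4-fold higher than in microglial cultures, the next highest. The other type IX chains did not follow at this size. Col9a1 stood at 5.63, 5.45, 4.80 and 4.24, a difference of 0.96, and Col9a2 at 5.19, 5.67, 5.68 and 5.46, a difference of 0.21, and neither was called.

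Col16a1, a fibril-associated chain, stood at 8.45, 9.07, 8.32 and 9.20 against a median of 6.92 and a range of 6.27 to 8.19 (1.79 ± 0.20, 3.46-fold, limma adjusted p = 9.84e-06). Col11a2 stood at 7.40, 7.59, 6.81 and 7.14 against a median of 5.38 and a range of 4.89 to 7.01 (1.65 ± 0.19, 3.13-fold, limma adjusted p = 1.10e-05). Microglia replicate 1 was the highest of the other arrays for both chains, and for Col11a2 it exceeded oligodendrocyte replicate 3. The difference of Col11a2 from microglial cultures was 1.02 ± 0.23 (limma adjusted p = 0.00429), barely over the minimum, and it was not called without microglia replicate 2 or 3 or oligodendrocyte replicate 1 or 2.

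Col11a1, the first chain of type XI collagen, stood at 8.80, 9.13, 9.29 and 10.04 in oligodendrocyte cultures. The astrocyte arrays read 8.15, 7.23, 7.12 and 12.12, the microglial ones 7.70, 7.58, 6.19 and 7.05, and the neuronal ones 5.52, 5.74, 5.86 and 5.26. All 4 oligodendrocyte arrays thus lay above every other array except astrocyte replicate 4, which was the highest of the 16. The difference from the mean of the other cultures was 2.19 ± 0.65 (4.55-fold, limma adjusted p = 0.0184), and it was not called without oligodendrocyte replicate 4 (1.94, limma adjusted p = 0.073). Without astrocyte replicate 4 it was 2.57 (limma adjusted p = 6.01e-06), and Col11a1 was then also higher than in each other culture. A second probe set of Col11a1 gave the same order of cultures, with a difference of 2.57, and the other probe set stayed at the floor.

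Col27a1, a fibrillar chain of cartilage, spread widely, with 6.38, 7.47, 5.73 and 5.29 against a range of 4.65 to 5.38 on the other 12 arrays. Oligodendrocyte replicate 4 lay inside that range and replicate 2 was the highest. The difference of 1.17 ± 0.26 (limma adjusted p = 0.00263) fell to 0.75 without oligodendrocyte replicate 2. The number of chains higher than in each other culture rose from 3 to 5 without oligodendrocyte replicate 4, with Col9a1 and Col27a1 added.

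The microglial arrays carried transcripts of oligodendrocytes as well. The mean over 7 measured oligodendrocyte marker genes was 11.57, 10.99, 8.88 and 10.29 on the oligodendrocyte arrays, 8.47, 8.37, 6.95 and 8.06 on the microglial arrays and between 5.13 and 6.79 on the neuronal and astrocytic ones. Col9a3 in microglia replicates 1 to 4 read 6.40, 5.71, 4.66 and 5.41. Like the marker list, Col9a3, Col11a1 and Col16a1 were lowest in replicate 3. Col11a2 (7.01, 5.78, 5.87 and 6.20) and Col27a1 (5.34, 5.07, 5.38 and 5.22) were lowest in replicate 2, and Col27a1 was highest in replicate 3. Conversely, the 8 microglia markers averaged 7.99 to 9.38 on the oligodendrocyte arrays. The part of these other cells in the levels of the chains was not tested, and in such bulk samples fewer cells of a type and less RNA per cell cannot be told apart.

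Oligodendrocyte cultures also differed among themselves in the fibrillar chains. Col1a1 read 7.28, 3.83, 4.99 and 7.88 on replicates 1 to 4, Col1a2 7.27, 3.95, 4.93 and 7.44, Col3a1 7.46, 4.54, 4.31 and 7.52, and Col5a2 8.54, 4.87, 5.12 and 8.13. Replicates 1 and 4 were high and replicates 2 and 3 low for all 4 chains. Serpinh1, the collagen chaperone HSP47, read 7.52, 4.33, 4.75 and 7.66 on the same arrays. The astrocyte marker list averaged 9.41, 7.82, 7.20 and 7.35, and the fibroblast and meningeal list without collagens 4.24, 4.23, 4.27 and 4.36. The pericyte and smooth muscle list averaged 5.25, 4.83, 4.64 and 5.05 and was higher on replicates 1 and 4. So were its members Tagln (9.76, 6.16, 6.01 and 7.93), Cnn1 (5.07, 4.45, 3.36 and 5.00) and, near the floor, Rgs5. Its other members did not follow that order. Among them Acta2 read 7.98, 7.47, 7.84 and 7.81, and Myh11 5.65, 5.79, 5.47 and 5.65. Pdgfrb, Des, Abcc9, Kcnj8 and Notch3 were the rest. The part of other cells in this spread was not tested.

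**Figure D2:**
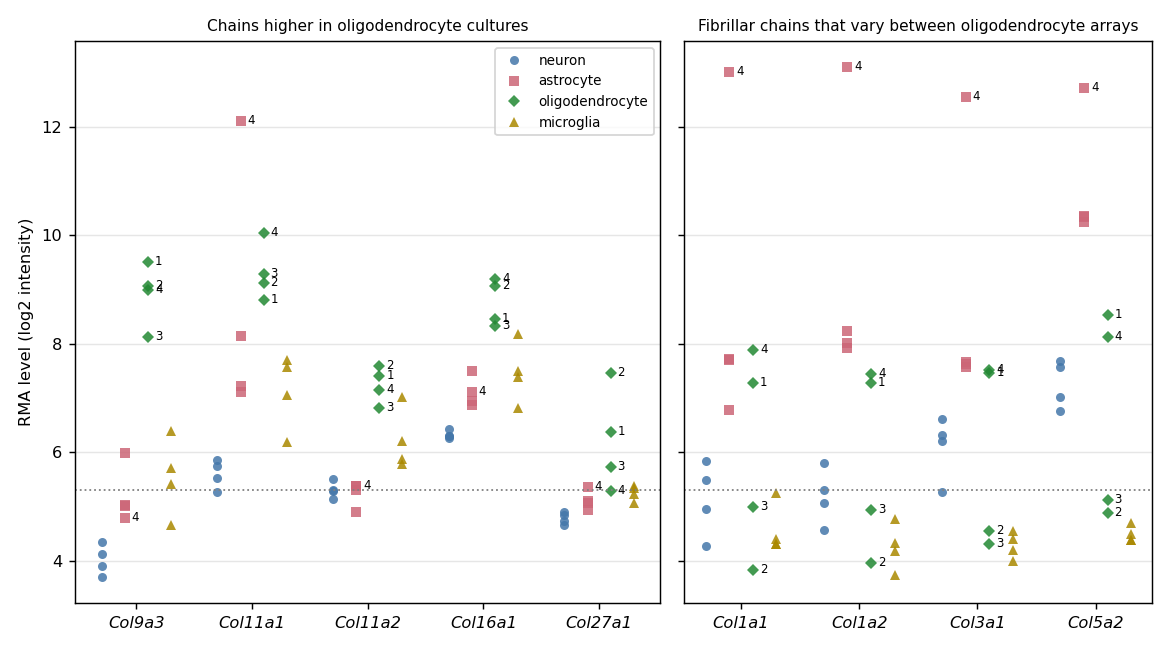
RMA level (log2 intensity, vertical axis) on each of the 16 culture arrays for the 5 chains called higher in oligodendrocyte cultures (left) and for 4 fibrillar chains (right). Numbers give the replicate of the oligodendrocyte points and mark astrocyte replicate 4, and the dotted line is the highest culture array median (5.31). Col9a3 is high on all 4 oligodendrocyte arrays (8.13 to 9.51), whereas Col1a1, Col1a2, Col3a1 and Col5a2 are high on oligodendrocyte replicates 1 and 4 only.

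In neuronal cultures 4 chains were higher and 8 lower against the averaged other cultures, compared with 11.8% and 10.7% of all probe sets. Col19a1, a fibril-associated chain known from interneurons, stood at 7.62, 6.78, 8.90 and 9.11, and the other 12 arrays ran from 4.60 to 5.36 with a median of 4.70. Every neuronal array lay above every other array, and the difference was 3.32 ± 0.30 (at least 9.98-fold, limma adjusted p = 1.61e-07). Col25a1, the transmembrane collagen CLAC-P found in neurons and in amyloid plaques, stood at 5.52, 4.51, 5.61 and 6.09 against a range of 2.78 to 3.77 (2.15 ± 0.21, at least 4.44-fold, limma adjusted p = 3.05e-07). Leaving out the dimmest 25% of probe sets removed Col25a1 and Col24a1 from the test, and with them their calls. Col19a1 and Col25a1 were the 2 chains higher than in each other culture, where 7.49% of all probe sets were called.

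The other neuronal chains were closer to the background. Col26a1 stood at 6.15, 5.70, 5.77 and 5.93 with the other arrays between 4.35 and 5.24 (1.04 ± 0.12, limma adjusted p = 1.67e-06). Col24a1, a fibrillar chain of developing bone, stood at 4.37, 3.68, 5.36 and 5.55 with the others between 3.38 and 3.83 (1.10 ± 0.24, limma adjusted p = 9.74e-04), and neuron replicate 2 lay inside that range. Neuron replicates 3 and 4 were the highest for Col19a1, Col24a1 and Col25a1. The call of Col26a1 was lost without neuron replicate 1 (0.96), and that of Col24a1 without neuron replicate 3 (0.89) or 4 (0.83). The 8 lower chains were Col5a3, Col6a1, Col6a2, Col9a3, Col11a1, Col12a1, Col14a1 and Col16a1, with differences from -1.07 for Col6a1 to -2.77 for Col11a1.

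Col4a2, a chain of the main basement membrane network, read 8.19, 7.90, 7.97 and 8.24 on the neuronal arrays, 7.22, 7.10, 7.04 and 10.46 on the astrocytic ones, and 6.29 to 6.86 on the oligodendrocytic and microglial ones. Neuronal arrays were thus above all other arrays except astrocyte replicate 4. The difference from the mean of the others was not called with all 16 arrays and was called without astrocyte replicate 4.

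No chain was called higher in microglial cultures by limma, and 8 were lower, against 6.3% and 8.95% of all probe sets. At an unadjusted p under 0.05 with the same minimum difference the number higher was also 0. At an adjusted p under 0.05 with no minimum it was 3, namely Col9a2, Col15a1 and Col20a1. Likewise 0 chains were higher than in each other culture, against 2.63% of all probe sets, and with no minimum difference the number was 1, Col15a1. Col15a1, a multiplexin of vascular basement membranes, stood at 5.37, 5.88, 5.86 and 5.57 in microglia and at 5.67 ± 0.25 (SD, n = 4) on average, with culture means of 4.92 to 4.99 elsewhere. The lower chains were Col1a2, Col3a1, Col4a1, Col4a5, Col5a2, Col6a2, Col8a2 and Col12a1, with Col5a2 furthest down at 4.49, 4.38, 4.69 and 4.38 (-3.79 ± 0.60, limma adjusted p = 1.09e-04).

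Many chains stayed at low levels, which is read here against the array median, since no measure of background was at hand. For 11 chains no culture array reached the highest culture array median of 5.31, and their levels ran from 3.12 to 5.00. They were Col2a1, Col4a4, Col6a3, Col6a5, Col6a6, Col10a1, Col13a1, Col17a1, Col20a1, Col22a1 and Col23a1. At the other end 6 chains lay above that median on all 16 arrays, namely Col4a1, Col4a2, Col5a1, Col6a1, Col16a1 and Col18a1. In all, 16 of the 41 chains were called in no comparison of a culture with the mean of the others. A low level on these arrays says that the probe set gave little signal, not that the transcript was absent, and small differences between cultures can still pass an adjusted p, as for Col20a1 in microglia (0.24, limma, with no minimum difference).

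The next question was how astrocyte replicate 4 differed from the other 3 astrocyte cultures, which the labels do not set apart from it. With 1 array against 3 this is a description with no test, and it was chosen from earlier results of these data. Relative to the mean of replicates 1 to 3, 12 chains were higher and 1 lower by a log2 difference of at least 1, where 3.16% and 5.21% of all probe sets were. Each of the 12 also exceeded the highest of the other 12 culture arrays, and the median difference was 0.31 over the 41 chains and 0.03 over all probe sets.

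The 4 largest differences were those of fibrillar chains, and 6 of the 11 fibrillar chains were higher by at least that size. Col1a1 read 6.78, 7.70 and 7.72 on replicates 1 to 3 and 13.01 on replicate 4, a difference of 5.61 (48.8-fold). Col1a2 was higher by 5.05, Col3a1 by 4.94 and Col11a1 by 4.62, from the levels given above, and Col5a2 and Col5a1 by 2.40 and 2.12. The levels of Col1a1, Col1a2, Col3a1 and Col5a2 on this array, 12.56 to 13.11, approach the highest value in the table (14.36). Col5a3, the remaining type V chain, was the one chain past the minimum in the other direction, at 8.22, 8.25 and 8.36 against 6.77 (-1.50).

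The network-forming and basement membrane chains followed in part. Col8a1 read 5.51, 7.25 and 6.93 on replicates 1 to 3 and 10.82 on replicate 4 (a difference of 4.26) and Col8a2 read 6.15, 6.80 and 7.31 and then 10.81 (4.06), while Col10a1, also of that class, read 3.81 on replicate 4 and differed by 0.19. Col4a2 read 7.22, 7.10 and 7.04 against 10.46 (3.34) and Col4a1 7.90, 7.33 and 7.41 against 10.19 (2.65). The other basement membrane chains, Col4a5, Col4a6 and Col4a4, differed by 0.35, -0.39 and 0.51. Of the fibril-associated chains Col14a1 was higher by 1.78 and Col12a1 by 1.13. On other probe sets Col14a1 differed by 0.83 and Col12a1 by 0.36 and -0.53, all short of the minimum of 1. The Col11a1 probe set at the floor differed by 0.79.

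Col6a1 and Col6a2, the beaded filament chains high in all astrocyte cultures, were not among the 12. Col6a1 was lower in replicate 4 by 0.80 than the mean of the others, at 8.29 against 8.94 to 9.16, and Col6a2 differed by -0.35. The median difference was 2.12 over the 11 fibrillar chains, 4.06 over the 3 network chains, 0.51 over the 5 basement membrane chains and 0.36 over the 5 beaded filament chains. Replicate 4 was thus the highest of the 4 astrocyte arrays for Col1a1 and the lowest for Col6a1, both among the 16 chains called higher in astrocyte cultures. The chain just past the size limit was Col12a1 (1.13), which fell short of it without astrocyte replicate 1, and the nearest chains short of it were Col15a1 (0.52) and, in the other direction, Col6a1 (-0.80).

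**Figure D3:**
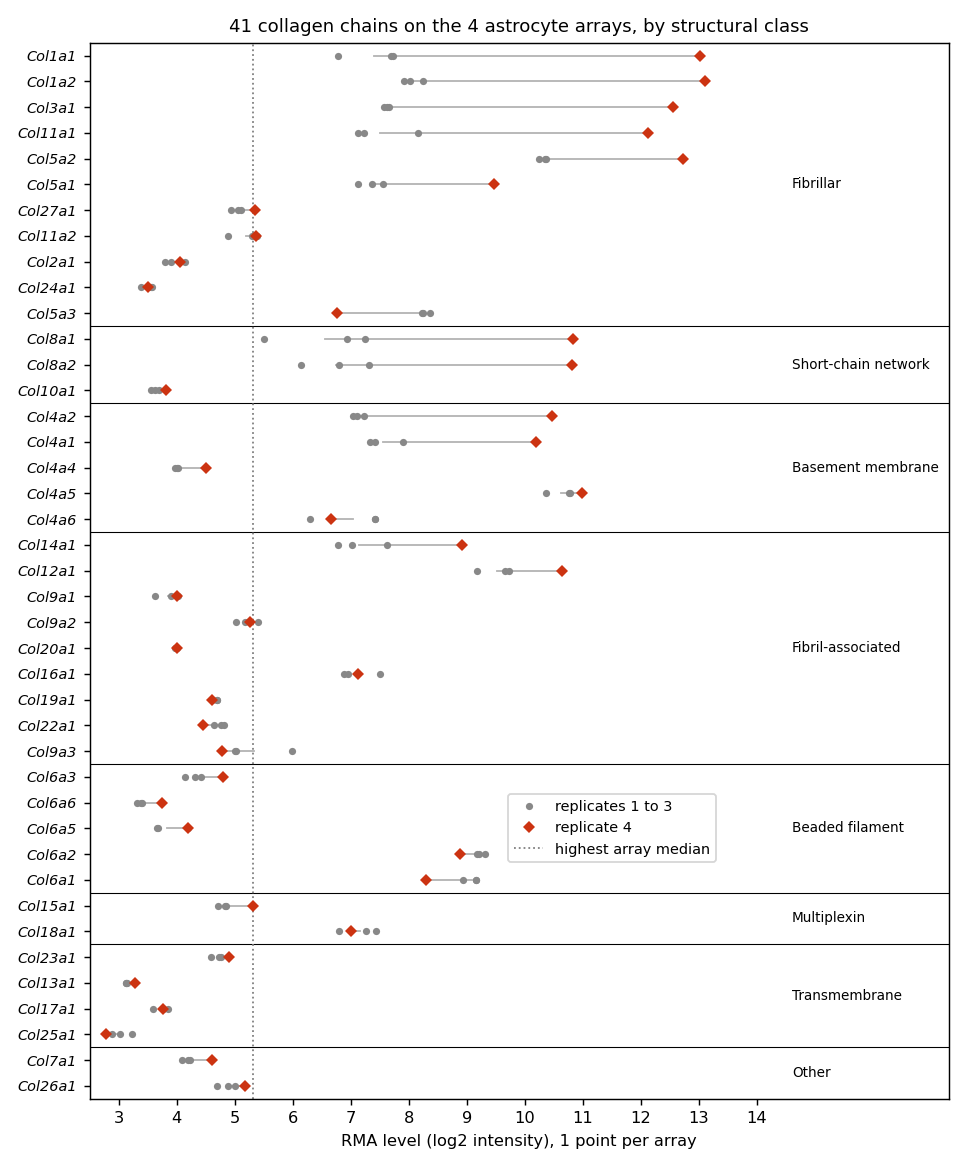
RMA level (log2 intensity, horizontal axis) of all 41 collagen chains on the 4 astrocyte arrays, grouped by structural class, with grey circles for replicates 1 to 3, red diamonds for replicate 4 and a line from the mean of replicates 1 to 3 to replicate 4. The dotted line is the highest culture array median (5.31). Replicate 4 lies far to the right for 6 fibrillar chains, Col8a1, Col8a2, Col4a1 and Col4a2, and to the left for Col5a3 and Col6a1.

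The sequence before the start of some of these genes is shown because chains that were high together in astrocyte replicate 4 can be set beside Col6a1, which was not. RefSeq windows (GRCr8) were held for 32 of the 41 chains, and the 250 bases before the annotated start were searched on both strands for the CCAAT box (spelled CCAAT), the GC box (GGGCGG) and the TATA box (TATAAA), each counted on its own, so that matches may overlap. Over all 33469 windows 34.0% held the first, 30.5% the GC box and 12.9% the TATA box, and of the 32 chains 9, 18 and 4 did. Of the 8 windowed chains past the size limit in replicate 4, 4 held the first, 6 the GC box and 1 the TATA box. Capitals mark matches on either strand. The lines give 100 bases of Col1a2 (chr4:33518307-33518406, plus strand), the 250 bases before Col11a1 (chr2:204508886-204509135, plus strand), the 76 bases between the starts of Col4a1 and Col4a2, which are transcribed away from each other (chr16:84885521-84885596, given on the strand of Col4a1), and the 250 bases before Col6a1 (chr20:11905440-11905689, plus strand).
Col1a2: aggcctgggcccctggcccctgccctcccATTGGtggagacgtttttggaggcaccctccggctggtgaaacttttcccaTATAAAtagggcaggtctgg
Col11a1: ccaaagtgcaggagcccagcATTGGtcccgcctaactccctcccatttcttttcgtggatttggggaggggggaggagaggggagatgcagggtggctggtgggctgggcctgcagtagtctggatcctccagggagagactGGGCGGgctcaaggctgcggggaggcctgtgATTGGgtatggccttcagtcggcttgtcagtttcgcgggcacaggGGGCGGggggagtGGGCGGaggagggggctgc
Col4a1 and Col4a2: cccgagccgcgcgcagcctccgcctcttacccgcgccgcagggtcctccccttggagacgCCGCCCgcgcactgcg
Col6a1: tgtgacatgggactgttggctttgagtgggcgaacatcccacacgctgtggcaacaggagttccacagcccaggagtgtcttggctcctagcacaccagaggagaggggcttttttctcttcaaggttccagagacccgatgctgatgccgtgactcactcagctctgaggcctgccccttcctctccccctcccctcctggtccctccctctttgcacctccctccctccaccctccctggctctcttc

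Col1a2 held the CCAAT box on the opposite strand from position -221 and the TATA box from -170, counted from the annotated start. Col11a1 held the CCAAT box on the opposite strand from -230 and -77 and the GC box from -108, -32 and -19. The interval shared by Col4a1 and Col4a2 held 1 GC box, on the strand of Col4a2, and both genes of the pair were high in replicate 4. None of the 3 motifs was found in the Col6a1 window, which says only that these letters are not there. A match is not a binding site, and no factor was measured.

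Genes that process collagen were examined from lists written for this purpose with earlier results of these data known. Of 19 measured genes for chain modification and folding, 11 were called higher and 1 lower in astrocyte cultures, with a median difference of 1.25, where 8.14% and 7.55% of all probe sets were called. Without astrocyte replicate 4, a setting added for the lists after their values were seen, 8 were higher and 1 lower, with P4ha1, Plod3 and P3h1 lost and a median of 0.88. Serpinh1 read 10.87, 11.09, 11.14 and 11.78 on the astrocyte arrays (5.43, limma adjusted p = 3.74e-07), and the proline hydroxylase subunit P4ha3 read 8.96, 9.17, 9.20 and 9.31 (4.00, limma adjusted p = 4.01e-11). The lower gene was the galactosyltransferase Colgalt2 (-1.85, limma adjusted p = 1.61e-04). In astrocyte replicate 4, 8 of the 19 were higher than the mean of replicates 1 to 3 by at least 1 and 0 lower, where 3.16% and 5.21% of all probe sets were. The lysyl hydroxylase Plod2 read 8.75 to 8.85 on replicates 1 to 3 and 11.31 on replicate 4 (2.51), and P4ha1 8.90 to 9.41 and 11.31 (2.10), while P4ha3 differed by 0.19.

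All 6 measured genes for propeptide cleavage and crosslinking were called higher in astrocyte cultures, with and without replicate 4, and 4 of them were higher in replicate 4. Lox, the lysyl oxidase that crosslinks fibrils, read 6.66 and 6.72 on astrocyte replicates 2 and 3, less on replicate 1 and 12.12 on replicate 4, a difference of 5.66 for replicate 4. Loxl2 read 5.39, 6.89, 6.89 and 11.41 (5.02), and Pcolce, which enhances propeptide cleavage, 7.04, 7.86, 7.87 and 10.25 (2.65). Of 6 measured collagen receptors 5 were called higher in astrocyte cultures, with and without replicate 4, and 3 were higher in replicate 4. Itga11, an integrin subunit for fibrillar collagen, was the receptor not called in astrocyte cultures (1.71, limma adjusted p = 0.0898). It read 3.53, 3.55, 3.99 and 9.55 on astrocyte replicates 1 to 4, a difference of 5.86 for replicate 4. Its level in replicates 1 to 3 lay near the floor of the arrays. Ddr1, a collagen-activated kinase, was high in all 4 (11.14, 10.64, 10.84 and 10.43).

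Markers of other cells were read on the same arrays. Of 13 measured fibroblast and meningeal genes that are not collagens, 3 were called higher in astrocyte cultures, Ogn, Fbln1 and Prrx1. Their list mean was 5.01, 5.20, 5.14 and 5.36 on astrocyte replicates 1 to 4, and 4.13 to 4.38 on the other arrays. In replicate 4 only Twist1 of the 13 was higher by at least 1 (3.87, 4.23, 4.47 and 6.19), Ogn read 10.14, 9.96, 10.07 and 10.04, and Fbln1 was lower by 0.89. The proteoglycans Dcn and Lum, also among the 13, lay between 3.13 and 3.52 on all 4 astrocyte arrays, near the floor. The 10 pericyte and smooth muscle genes averaged 6.48, 6.85, 6.90 and 7.40, with Acta2, smooth muscle actin, at 9.37, 10.53, 10.57 and 12.83 and Rgs5, a pericyte marker, between 3.69 and 3.93. Of the 10, 5 were called higher in astrocyte cultures, with all arrays and without replicate 4, namely Pdgfrb, Acta2, Myh11, Cnn1 (by 6.10) and Tagln (by 6.30), and Acta2 and Myh11 were higher in replicate 4 by at least 1. The 8 microglia markers averaged 4.68, 5.94, 6.08 and 4.39, and 5 of them were lower in replicate 4 by at least 1. The 8 astrocyte markers averaged 11.86, 11.43, 11.42 and 10.54, and 6 of them were lower in replicate 4 by at least 1, among them Aqp4 (12.67, 12.28, 12.29 and 9.97). The other astrocyte markers did not follow: Fgfr3 was higher in replicate 4 by 1.06, and Gja1 differed by -0.48. The part of other cells or of a changed state of the astrocytes in the levels of the chains was not tested.

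The RNA mixtures gave the same chains a second reading, since every replicate 2 mixture was made with RNA of astrocyte replicate 4 and every replicate 1 mixture with RNA of replicate 1. This compares 2 sets of RNA, not 2 conditions, and it shares its RNA with the cultures and adds no independent culture. In the limma fit with the mixture as a block, 12 chains were higher and 0 lower in replicate 2 than in replicate 1, against 1.11% and 1.19% of all probe sets. They were the same 12 chains that were past the size limit in astrocyte replicate 4, each on its chosen probe set. On other probe sets the difference between mixture replicates was -0.08 for Col14a1 and 1.4 and 1.0 for Col12a1. It was 0.7 on the Col11a1 probe set at the floor. At an unadjusted p under 0.05 with the same minimum the number lower was also 0. With no minimum difference 6 chains were lower at an adjusted p under 0.05, Col5a3, Col6a1, Col6a2, Col9a3, Col19a1 and Col25a1. The neuronal RNA differed between the mixture replicates as well. Col19a1 read 7.62 and 6.78 and Col25a1 5.52 and 4.51 on neuron replicates 1 and 2. On astrocyte replicates 1 and 4 Col19a1 read 4.60 both times and Col25a1 3.23 and 2.78.

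Col1a1 was higher in replicate 2 by 6.89 in NA1, 6.71 in NA2, 6.37 in NA3, 6.55 in NAO and 6.13 in NAOM, on average 6.53 ± 0.11 (SE, 5 mixtures, 92.5-fold, limma adjusted p = 1.86e-07). The astrocytic fraction ran from 0.2 to 0.75 but was the same in both replicates of a mixture. A similar difference in all 5 mixtures thus follows largely from the design. Col1a2 followed at 5.54 ± 0.07 (limma adjusted p = 6.66e-08), Col3a1 at 4.67 ± 0.12 and Col8a2 at 4.66 ± 0.12 (limma adjusted p = 1.65e-06 for both). The smallest of the 12 were Col14a1 (1.14 ± 0.09, limma adjusted p = 3.21e-04) and Col5a1 (1.08 ± 0.16, limma adjusted p = 0.00585). Each of the 12 was higher in replicate 2 in all 5 mixtures, and without NA1 the difference of Col5a1 was 0.92, under the minimum.

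Levels expected in each mixture were computed as the sum of the linear intensities of the stated parent arrays, weighted by the stated fractions. All 410 levels (41 chains on 10 arrays) lay within 1 log2 unit of expectation, with a median absolute difference of 0.186. These figures were not set beside those of all probe sets. The 11 chains that passed the array median on no culture array read low in the mixtures too, so that their match says little. Over the 41 chains, which are not independent, r between observed and expected level was 0.987 to 0.998 on the 10 arrays. Levels of different chains spread widely on each array, so that a high r says little about the match of any single chain. For Col1a1 the expected difference between replicates was 6.10 in NA1 and 5.33 in NAOM, below the observed 6.89 and 6.13. The mean observed difference exceeded the mean expected one for 10 of the 12 chains, and for 7 of them it did so in every mixture. Col4a2 (1.46 observed, 1.58 expected) and Col5a1 (1.08 observed, 1.42 expected) went the other way.

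**Figure D4:**
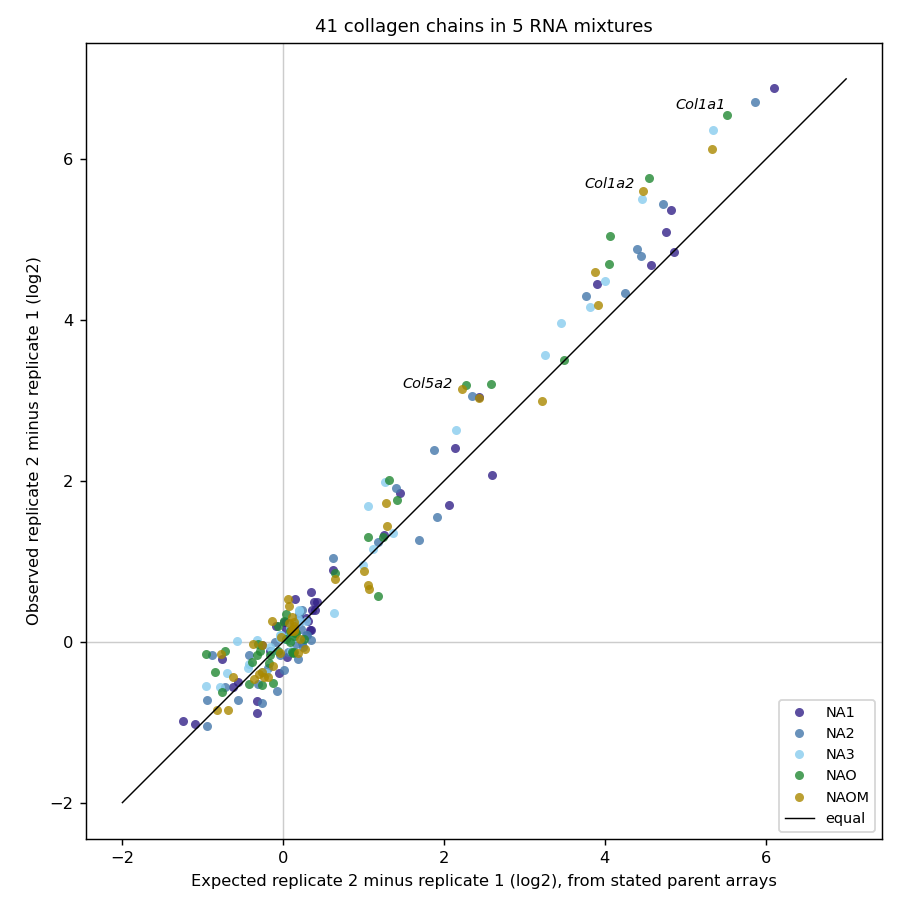
Replicate 2 minus replicate 1 for 41 collagen chains in each of 5 RNA mixtures (log2), with the observed difference on the vertical axis, the difference expected from the stated parent arrays and fractions on the horizontal axis, and a line where both are equal. Most chains lie near 0 on both axes, and Col1a1 (6.13 to 6.89 observed, 5.33 to 6.10 expected), Col1a2 and Col5a2 lie above the line in all 5 mixtures.

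Within the mixtures, the contrast of NA1 with NA3 asked which chains followed the astrocytic fraction from 0.25 to 0.75. By limma with no minimum difference 3 chains were higher in NA1 and 0 lower, against 5.83% and 10.5% of all probe sets, and at an unadjusted p under 0.05 these numbers were 5 and 3. The replicate numbers pair the mixtures, since the labels tie them to shared parents, and with the replicate as a block 14 chains were higher and 3 lower, against 12.0% and 13.4%. Col6a2 read 8.86 and 8.11 in NA1 and 7.05 and 6.68 in NA3, a difference of 1.62 ± 0.33 (limma adjusted p = 0.0142, and 1.68e-04 with the block). Col6a1 (1.17 ± 0.32, limma adjusted p = 0.046) and Col4a6 (0.71 ± 0.13, limma adjusted p = 0.0103) were the others called without the block. With the block Col19a1, Col25a1 and Col26a1, which were called higher in neuronal cultures, were lower in NA1, by -1.04, -0.76 and -0.55. Col24a1, also called higher in neuronal cultures, differed by -0.15 and was not called (limma adjusted p = 0.358).

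NAO against NA2 replaced a part of the astrocytic RNA with oligodendrocytic RNA. Col9a3 was the 1 chain higher and 0 were lower by limma, against 0.902% and 0.197% of all probe sets, and at an unadjusted p under 0.05 the number lower was 3. It read 6.92 and 6.76 in NAO and 4.96 and 4.23 in NA2, a difference of 2.24 ± 0.37 (limma adjusted p = 0.0423). With the replicate block Col9a3 was again the 1 chain higher (limma adjusted p = 0.0011) and 8 chains were lower, against 1.85% and 1.62%. The 8 were Col1a2, Col4a5, Col4a6, Col5a2, Col6a1, Col6a2, Col12a1 and Col14a1, all of them called higher in astrocyte cultures. Without the block, leaving out replicate 1 or replicate 2 of the mixtures left 1 array on each side, with the spread taken from the other mixtures. Col9a3 then differed by 2.52 or 1.96 with no call, and 1 or 0 chains were called higher in NA1 than in NA3, in designs with little room for a call.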

How the data were processed

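RNA of 16 cultures and 10 mixtures of these RNAs was measured on rat expression arrays. The deposited values are log2 intensities that the authors obtained by RMA with the affy package, per the submitters' processing notes, and the versions are not given in the sources used here. RMA fits all arrays together and brings them to a common distribution, which hides any difference in total RNA. No detection calls or scan dates were used, and precision is limited by how many arrays there are.

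Of 31099 probe sets, 57 controls were left out and 31042 tested, of which 20826 carried 1 gene symbol, 436 several and 9780 none. Each chain was read from its brightest probe set, by the average of all 26 arrays. Linear models were fitted to all probe sets of the 16 culture arrays or of the 10 mixture arrays in R 4.3.3 by lmFit and eBayes of limma 3.58.1, with Benjamini-Hochberg adjustment over all probe sets. Every culture was set against the average of the remaining 3 and against each singly, at an adjusted p under 0.05 and a log2 difference of at least 1. Mixture replicates were compared with the mixture as a block, and NA1 with NA3 and NAO with NA2 without a block, with no minimum difference. Astrocyte replicate 4 was compared with the mean of replicates 1 to 3 with no test. The fit was also run on simulated data with known changes and independent noise. Those data held no outlying array and no shared parent RNA, so that the run says nothing about either. Python 3.11.15, pandas 2.3.3, numpy 2.4.6 and matplotlib 3.10.9 were used for summaries and plots.

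Members, gene lists and comparisons were chosen with earlier results of these data known. Any chain could be named. Values on every array were given, by rule, for chains higher in 1 culture than in each other culture, for those called higher in oligodendrocyte cultures or highest there and above every array median, and for the 8 largest differences of astrocyte replicate 4. Values of other chains and of listed genes were added after they were seen. Alternatives were the size limit, the probe set used, the filter on dim probe sets, median centring, quantile normalization of the arrays analysed, the variance model, the replicate block and leaving out each array. Replicate numbers pair the mixtures, since the labels give shared parents, and same-numbered mixtures deviated together (r = 0.3807 to 0.8727 over 10 pairs).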

Additional observations from a re-analysis of the deposited data

Results flagged for a closer look

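In a group of 4 arrays, an array was listed here when its gap to the nearest of the others took up so much of the whole range of the group that it passed Dixon's critical value. This held for 20 of 164 combinations of a chain and a culture, where chance gives about 1 in 20, and arrays that share a chance deviation count more than one time. No explanation was tested.

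Astrocyte replicate 4 accounted for 8 of the 20. It was the highest astrocyte array for Col1a1 at 13.01 (others 6.78 to 7.72), Col1a2 at 13.11 (7.92 to 8.24), Col3a1 at 12.56 (7.57 to 7.66), Col4a2 at 10.46 (7.04 to 7.22) and Col5a2 at 12.72 (10.24 to 10.36). It was also the highest for Col4a4 at 4.51 (3.97 to 4.03) and Col13a1 at 3.28 (3.13 to 3.15), both below the array median. It was the lowest for Col5a3 at 6.77 (8.22 to 8.36). Astrocyte replicate 3 was the lowest for Col11a2 at 4.89 (5.30 to 5.38).

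Microglia replicate 3 was the highest of its group for Col1a1 at 5.25 (4.30 to 4.40), Col6a6 at 3.76 (3.53 to 3.57), Col8a1 at 5.09 (4.58 to 4.63), Col10a1 at 3.99 (3.66 to 3.71), Col14a1 at 5.30 (4.45 to 4.56) and Col22a1 at 5.00 (4.39 to 4.47). All 6 levels lay below the highest culture array median. Microglia replicate 2 was the lowest for Col13a1 at 3.23 (3.38 to 3.40) and microglia replicate 1 for Col25a1 at 3.36 (3.73 to 3.77). Neuron replicate 3 was the highest for Col6a5 at 4.34 (3.95 to 4.01), neuron replicate 4 the lowest for Col9a1 at 3.89 (4.29 to 4.37), and oligodendrocyte replicate 2 the highest for Col4a4 at 4.50 (3.99 to 4.02).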

How the results depend on the processing

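Of 1267 recomputed tested differences of named chains, 1221 kept their call and 46 lost it. Of 91 recomputed differences of astrocyte replicate 4, which had no test, 8 moved by more than the replicate spread. None of these 1358 reversed. The alternative probe set was the one with the largest variance, which for Col12a1 and Col14a1 was the chosen one. Their other probe sets were thus not part of these recomputations. Counts changed mostly with the size limit. With a minimum log2 difference of 2 the chains higher and lower were 2 and 2 in neuronal cultures, 2 and 0 in oligodendrocyte cultures, 7 higher in mixture replicate 2, 5 lower in microglia, 0 lower in astrocytes and 0 lower in astrocyte replicate 4, and 1 chain each was higher than in every other culture in neurons and oligodendrocytes. With no minimum, 14 were lower in neurons, 6 in astrocytes, 11 in oligodendrocytes and 6 in mixture replicate 2, 3 were higher in microglia, and 4, 6 and 1 were higher than in every other culture in neurons, oligodendrocytes and microglia. Without the dimmest 25% of probe sets, neuronal cultures had 2 higher chains and 1 higher than in every other culture, since Col24a1 and Col25a1 were no longer tested. With quantile normalization of the mixtures alone 1 chain was lower in NA1 than in NA3. With culture means as parents the median distance of mixtures from expectation was 0.336. The cause of these shifts, beyond the limits themselves, was not tested. Signal near background limits the 14 chains whose culture means never passed the array median.

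Leaving out 1 array at a time gave 3 to 5 higher and 7 to 8 lower chains in neurons, 14 to 16 and 2 to 4 in astrocytes, 4 to 7 and 6 to 7 in oligodendrocytes, and 0 to 0 and 6 to 10 in microglia. Chains higher than in every other culture numbered 2 to 3, 10 to 13, 2 to 5 and 0 to 0 in the same order. The count was 11 to 12 higher in astrocyte replicate 4. Leaving out 1 mixture with both its arrays gave 11 to 12 chains higher in mixture replicate 2. Leaving out the same replicate of both mixtures compared left 1 array on each side and gave 0 to 1 chains higher in NA1 than in NA3 and 0 to 0 in NAO than in NA2.

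With the replicate block, 14 chains were higher and 3 lower in NA1 than in NA3, and 8 were lower in NAO than in NA2. Without the mixture block the comparison of mixture replicates lost Col5a1 (limma adjusted p = 0.0624), Col12a1 (0.0541) and Col14a1 (0.296). In the cultures same-numbered arrays share only a number (r = -0.1067 to 0.1782, above 0.1 in 5 of 24 pairs), and with the block 13 chains were higher in astrocytes than in every other culture.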
